A study of Mus musculus with 12 samples.

Results

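Chemokines are small secreted proteins that bind G protein-coupled receptors on leukocytes and steer their movement. A set of 32 chemokine and chemokine receptor genes was chosen by name, and each gene was read from all probe sets annotated to it alone. All 32 were on both array designs used, out of 20262 distinct genes named by a probe set of their own. The set held 13 CC ligands, 9 CXC ligands, the CX3C ligand Cx3cl1 and 9 receptors. The macrophage and liver arrays carried 32 probe sets for these genes, a single probe set for each, and the aorta arrays carried 43, with several probe sets for 9 of the genes.

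Chemokines are grouped by the spacing of their conserved cysteines into CC, CXC, CX3C and C families, and most receptors bind ligands of 1 family only. In atherosclerosis Ccr2 and Cx3cr1 and their ligands are known for bringing monocytes into the artery wall. In the liver, resident Kupffer cells, endothelium and recruited leukocytes make most of these ligands, while Cxcl12 is made by stromal cells and Cxcl13 organises B cell follicles.

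The study asked what differs when the protein kinase C eta gene, Prkch, is lost in mice that lack apolipoprotein E and so are prone to atherosclerosis. Controls were Apoe-/- and knockouts were Prkch-/-Apoe-/-, both backcrossed to C57BL/6J, so every animal lacked Apoe. Peritoneal macrophages, elicited with thioglycolate and left unstimulated, were from female mice fed a regular diet, with 3 arrays per genotype at ages of 18, 17 and 27 weeks for replicates 1, 2 and 3. Liver came from re-fed males of 20 weeks after 12 weeks of high-fat diet, with 2 arrays per genotype. Aorta came from fed males of the same age and diet, with 1 array per genotype, each of RNA pooled from 4 mice. The labels call the macrophage and liver samples biological replicates without naming animals, and p-values therefore reflect only how far these arrays spread.

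Several properties of the arrays bear on the values. The labelled tissues matched their markers: the summed linear signal of 6 hepatocyte genes was 69510 to 74536 on the liver arrays and 393 to 469 on the macrophage arrays, and 11 macrophage genes summed to 58568 to 76279 on the macrophage arrays. The aorta pools held the smooth muscle markers, summing to 3665 in the control and 4520 in the knockout, together with skeletal muscle and fat markers. Prkch itself, at its brighter probe set, was 9.31 to 9.94 on the log2 scale in control macrophages and 8.79 to 9.36 in knockouts, and 6.57 and 6.87 against 5.93 and 5.65 in liver. Between the aorta pools its signal went from 17.2 (control) to 9.94 (knockout). The deleted part of Prkch was not given in the labels, so these probe sets may lie outside it. Macrophage knockout replicate 2 stood apart from the other 5 arrays, at 36.8 on a first principal component that held 56.5% of the variance, where the others lay between -18.8 and 3.40. Macrophage control replicate 3 and knockout replicates 2 and 3 shared 16075 to 18000 exactly equal values in each pair, so that 13 of the 32 genes had the same value on at least 2 of these 3 arrays. Control replicates 1 and 2 and knockout replicate 1 shared 53 to 69 values with each other, a number like that between liver arrays, and 0 to 3 with the arrays just named. They were taken as the other array set, and differences within each set are given beside the pooled ones. Within both sets Prkch was below every control on every knockout array, by means of -0.54 in the set of control replicates 1 and 2 and -0.49 in the other.

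Many of these genes lie side by side. RefSeq places 11 of the 32 on chromosome 11, where Ccl2, Ccl7, Ccl11, Ccl12 and Ccl8 neighbour each other, and 8 on chromosome 5, where Cxcl5, Ppbp, Pf4, Cxcl1 and Cxcl2 lie in 1 cluster. Promoter windows of 300 bases, from 250 bases before to 50 after the start, were available from RefSeq on GRCm38.p6 for 23 of the 32 genes. Both strands were searched. The NF-kB consensus, the site of a transcription factor family of inflammation, was found in 5 of the 23 windows, namely those of Ccl9, Ccr1, Ccr3, Cxcl1 and Cxcl2, against 8.46% of all 32851 windows. The TATA box letters, TATAAA, were in 8 of the 23 at any position, against 13.6% of all windows. The GAS element TTCNNNGAA, bound by STAT proteins, was in 2 of the 23, Ccl17 and Cxcl14, against 8.30% of all windows. A match to these letters describes the window and is not a measured binding site. The windows of Cxcl1, at chr5:90890995-90891294, and Cxcl2, at chr5:90903649-90903948, both on the plus strand, are shown because these neighbours were placed on opposite sides of the tissue comparison. Capitals mark the NF-kB consensus, which reads GGGAATTTCCC in both, starts at position -71 in Cxcl1 and at -97 in Cxcl2, and counts as 2 overlapping matches because it reads nearly the same on either strand.
Cxcl1: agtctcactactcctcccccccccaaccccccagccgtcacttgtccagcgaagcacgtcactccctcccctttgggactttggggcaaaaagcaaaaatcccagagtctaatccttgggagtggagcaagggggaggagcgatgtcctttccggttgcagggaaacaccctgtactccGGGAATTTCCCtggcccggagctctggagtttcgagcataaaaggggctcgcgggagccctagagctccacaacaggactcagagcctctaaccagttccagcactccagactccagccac
Cxcl2: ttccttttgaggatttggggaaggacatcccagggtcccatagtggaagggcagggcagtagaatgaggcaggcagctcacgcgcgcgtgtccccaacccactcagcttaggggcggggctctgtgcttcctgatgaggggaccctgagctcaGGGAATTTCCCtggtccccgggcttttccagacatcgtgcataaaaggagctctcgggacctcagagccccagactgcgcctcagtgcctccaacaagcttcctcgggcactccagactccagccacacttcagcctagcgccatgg
The windows of Cxcl9, at chr5:92328030-92328329 on the minus strand, and Cxcl13, at chr5:95956689-95956988 on the plus strand, are shown because Cxcl9 was among the genes lower in knockout liver and Cxcl13 had the widest difference in the aorta. Capitals mark the letters TATAAA, which start at position -195 in Cxcl9 and at -46 in Cxcl13. Position was not part of the search, so a match need not be a working TATA box.
Cxcl9: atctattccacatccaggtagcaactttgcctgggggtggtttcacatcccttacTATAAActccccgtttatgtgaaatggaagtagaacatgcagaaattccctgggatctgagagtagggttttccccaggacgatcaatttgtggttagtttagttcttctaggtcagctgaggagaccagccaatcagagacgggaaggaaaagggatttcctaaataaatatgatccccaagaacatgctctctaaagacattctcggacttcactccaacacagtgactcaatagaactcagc
Cxcl13: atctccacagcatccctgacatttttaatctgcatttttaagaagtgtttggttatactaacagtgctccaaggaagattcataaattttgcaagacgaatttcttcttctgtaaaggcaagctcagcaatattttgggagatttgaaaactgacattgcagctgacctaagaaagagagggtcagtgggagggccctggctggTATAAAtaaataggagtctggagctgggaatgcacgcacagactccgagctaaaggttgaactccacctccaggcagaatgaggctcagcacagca

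Control macrophages were compared with control liver to place each transcript by tissue. The receptors Cxcr4 and Ccr2 and the ligands Ccl3 and Pf4 were higher in macrophages, while Cxcl12, Cxcl9 and Cxcl1 were higher in liver. In limma over 10 arrays, with each array's median subtracted and Benjamini-Hochberg adjustment over 16363 genes, 25 of the 31 members tested were called at an adjusted p under 0.05. Of these, 19 were higher in macrophages and 6 in liver, where 33.2% of all genes tested were called higher in macrophages and 30% higher in liver. The member left out as dim in both tissues was Ccl12. Passing the filter in macrophages alone were Ccl8, Ccr1, Ccr3, Cxcr2 and Cxcr5, and in liver alone Cxcl5 and Ppbp, so the filter itself favoured a difference in these 7. Among the 24 members past the filter in both tissues, 14 were called higher in macrophages and 5 in liver. By role, 4 of 5 receptors, 7 of 11 CC ligands and 3 of 7 CXC ligands among these 24 were called higher in macrophages. Higher in liver were 3 CXC and 2 CC ligands. The share of all genes past the filter in both tissues was not computed, so the counts among the 24 have no matched background. Sex, diet, age and array processing differed along with the tissue and cannot be told apart from it, and less RNA per cell cannot be told apart from fewer cells of a type in any tissue here.

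Among the receptors past the filter in both tissues, Cxcr4 and Ccr2 had the widest gaps. Cxcr4, the receptor of Cxcl12, read 12.41, 12.46 and 12.59 on the log2 scale in control macrophages and 7.45 and 7.63 in control liver, a difference after centring of 4.17 ± 0.28 (SE, n = 3 and 2; limma adjusted p = 5.18e-07). Ccr2, the receptor of Ccl2 and Ccl7, read 9.95, 10.05 and 9.85 against 5.58 and 6.02, a centred difference of 3.37 ± 0.28 (limma adjusted p = 2.48e-06). No macrophage array overlapped a liver array for either receptor. Ccr1, a receptor for Ccl3 and Ccl5, read 9.42, 9.90 and 9.88 in macrophages and 3.10 and 3.46 in liver. The liver readings lay at the 7.76th and 11.8th percentiles of their arrays, below the filter, so no size is given for this difference. Cxcr3, the receptor of interferon-induced ligands, was 0.55 higher in macrophages. Cx3cr1, the fractalkine receptor, was 0.63 higher in macrophages and did not pass (limma adjusted p = 0.087).

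Among ligands the direction depended on the gene. Ccl3, a leukocyte attractant secreted by activated macrophages, read 11.86, 11.88 and 11.34 in control macrophages and 6.35 and 7.32 in liver, a centred difference of 4.07 ± 0.28 (limma adjusted p = 5.80e-07). Pf4, platelet factor 4, read 10.30, 10.62 and 10.29 against 5.42 and 5.74, a centred difference of 4.05 ± 0.18 (limma adjusted p = 2.11e-08). Both ligands were higher on every control macrophage array than on either control liver array. Cxcl2, a neutrophil attractant, was 2.50 higher in macrophages. Its neighbour Cxcl1 went the other way, with 7.24, 7.23 and 7.03 in macrophages and 7.98 and 8.66 in liver, a centred difference of -1.94 ± 0.19 (limma adjusted p = 1.07e-05). Both share the NF-kB consensus printed above.

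Cxcl12 had the widest difference towards liver. It read 5.51, 5.69 and 6.03 in macrophages and 9.93 and 9.76 in liver, a centred difference of -4.88 ± 0.22 (limma adjusted p = 1.89e-08). Cxcl9, a T cell attractant induced by interferon gamma, read 5.66, 5.90 and 6.08 against 7.04 and 7.38, a centred difference of -2.11 ± 0.18 (limma adjusted p = 3.62e-06). Its macrophage and liver arrays did not overlap. Cxcl5, a neutrophil attractant, read 5.15, 5.05 and 5.24 against 5.34 and 5.62, and Ppbp, the platelet basic protein, read 4.91, 5.48 and 5.56 against 5.71 and 5.87. Both were below the filter in macrophages, so no size is given for these differences either. Ppbp, Ccl24, Ccl11, Cx3cl1 and Cxcl14 were not called.

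**Figure D1:**
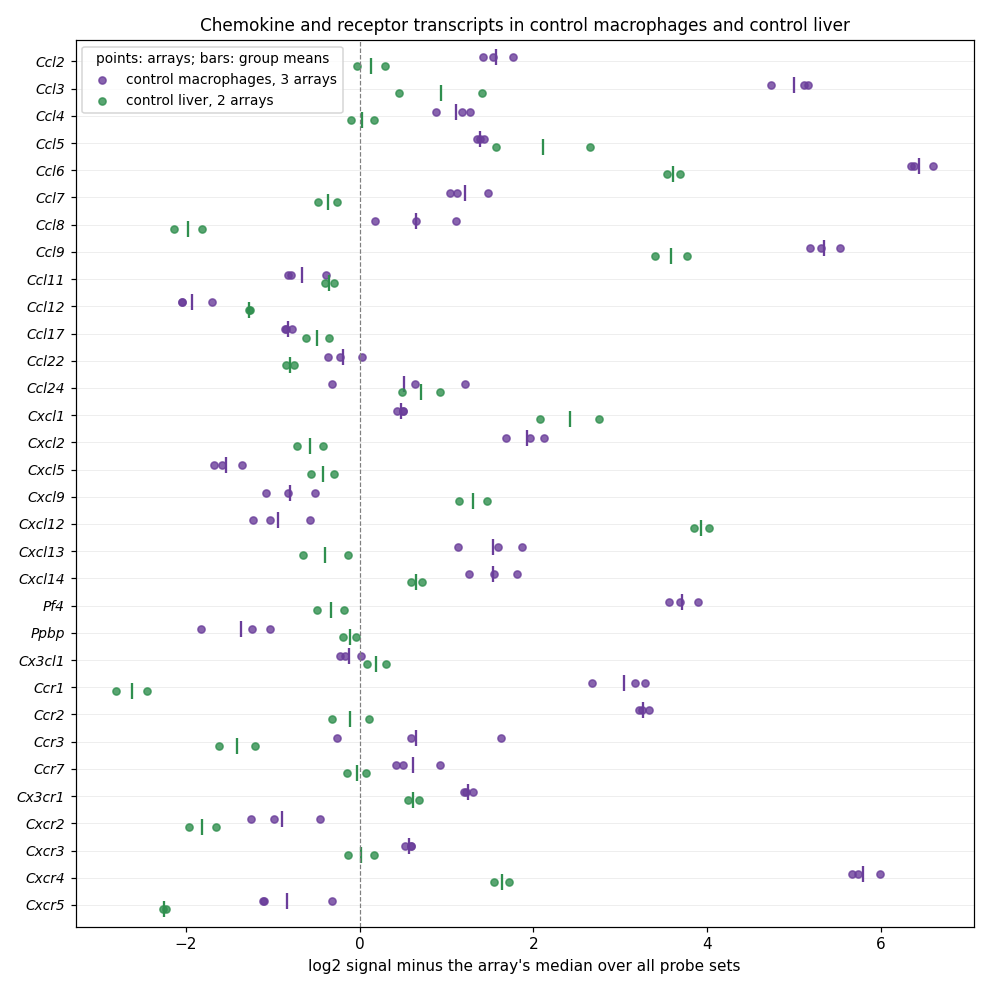
Level of each of the 32 genes on the 3 control macrophage arrays and the 2 control liver arrays, as log2 signal minus the array's median over all probe sets, with bars at the group means. Ccr1, Cxcr4, Ccl3 and Pf4 lie far to the right in macrophages and Cxcl12 in liver, and levels of different genes are not comparable.

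The scaling decides some of these directions. Deposited values were higher on the macrophage arrays by a median of 0.78 log2 over all genes, and with no centring 12062 genes were called higher in macrophages and 1788 in liver, against 5434 and 4913 after centring. On that scale 28 members were called, 24 of them higher in macrophages. The direction of 5 members turned, namely Ccl5, Ccl24, Ccl11, Ccl17 and Cx3cl1, whose centred differences of -0.72 to -0.19 became 0.06 to 0.59. With quantile normalization no member changed direction. The 10 described members kept their direction on all 3 scales.

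In macrophages no chemokine or receptor transcript was called between genotypes. Ccr2 was higher on all 3 knockout arrays. Of the neighbouring ligand genes on chromosome 11, Ccl2, Ccl7 and Ccl8 had lower means in knockouts, with overlapping arrays. Their neighbour Ccl11 had a higher mean, also with overlap, and Ccl12 was below the filter. Of 15039 genes tested in limma with Benjamini-Hochberg adjustment, 0 were called, or 0%, and 0 of the 29 members that passed the filter. At an unadjusted limma p under 0.05 there were 105 genes, or 0.698%, and 1 member, Ccr2. The unadjusted p of Ccr2 was not under 0.05 when any 1 of the 3 controls was left out, with a block for array set or with all 10 arrays in 1 fit. Ccr2 was also the only member whose knockouts all lay above the controls, a pattern of 0.652% of all genes, and no member had all knockouts below, against 1.6% of all genes. Differences were positive for 15 members and negative for 14, with a median of 0.00, where 36.5% of all genes were positive with a median of -0.04.

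Ccr2 brings inflammatory monocytes out of the bone marrow and into tissue. Controls read 9.95, 10.05 and 9.85, and knockouts 10.34, 10.96 and 10.17. Every knockout array was above every control array, with replicate 2 the highest. The difference was 0.54 ± 0.20 (SE, n = 3 per genotype; limma adjusted p = 1.00). It was 0.33 within the set of control replicates 1 and 2 and knockout replicate 1, and 0.72 within the other set. Without knockout replicate 2 it was 0.30, with the 2 remaining knockouts still above the controls.

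Among the CC ligands 7 of 12 tested had negative differences, with Ccl8, Ccl4, Ccl7 and Ccl2 among them. Ccl2, the main Ccr2 ligand, had control values of 8.15, 8.49 and 8.14 and knockout values of 8.08, 7.80 and 8.14, and differed by -0.25 ± 0.14. Ccl7, another Ccr2 ligand, read 7.86, 8.20 and 7.64 against 7.81, 7.42 and 7.64, a difference of -0.28 ± 0.17. Ccl8 read 6.92, 7.83 and 7.25 against 6.48, 6.53 and 7.25, a difference of -0.58 ± 0.29. For all 3 genes knockout replicate 3 equalled control replicate 3 to the printed precision, and the genotypes overlapped. Within the 2 array sets the differences were -0.24 and -0.17 for Ccl2, -0.22 and -0.11 for Ccl7, and -0.90 and -0.36 for Ccl8. Leaving out single arrays moved these by over 1.5 times: without control replicate 2 they were -0.14, -0.13 and -0.33, and without knockout replicate 2 Ccl2 was at -0.15 and Ccl7 at -0.18. Ccl4, a leukocyte attractant, read 8.002, 7.90 and 7.48 against 7.49, 7.48 and 7.48, a difference of -0.31 ± 0.14. Control replicate 3 lay level with the 3 knockouts, and the difference was -0.46 within the first set and 0 within the other. Leaving out control replicate 1 gave -0.21 and leaving out control replicate 3 gave -0.47. Ccl11, or eotaxin, read 5.95, 5.90 and 6.21 against 6.14, 6.21 and 6.21, a difference of 0.17 ± 0.10 that was 0.21 within the first set and 0 within the other. Leaving out control replicate 2 gave 0.11 and leaving out control replicate 3 gave 0.26. The limma adjusted p of each of these 5 ligands was 1.00.

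**Figure D2:**
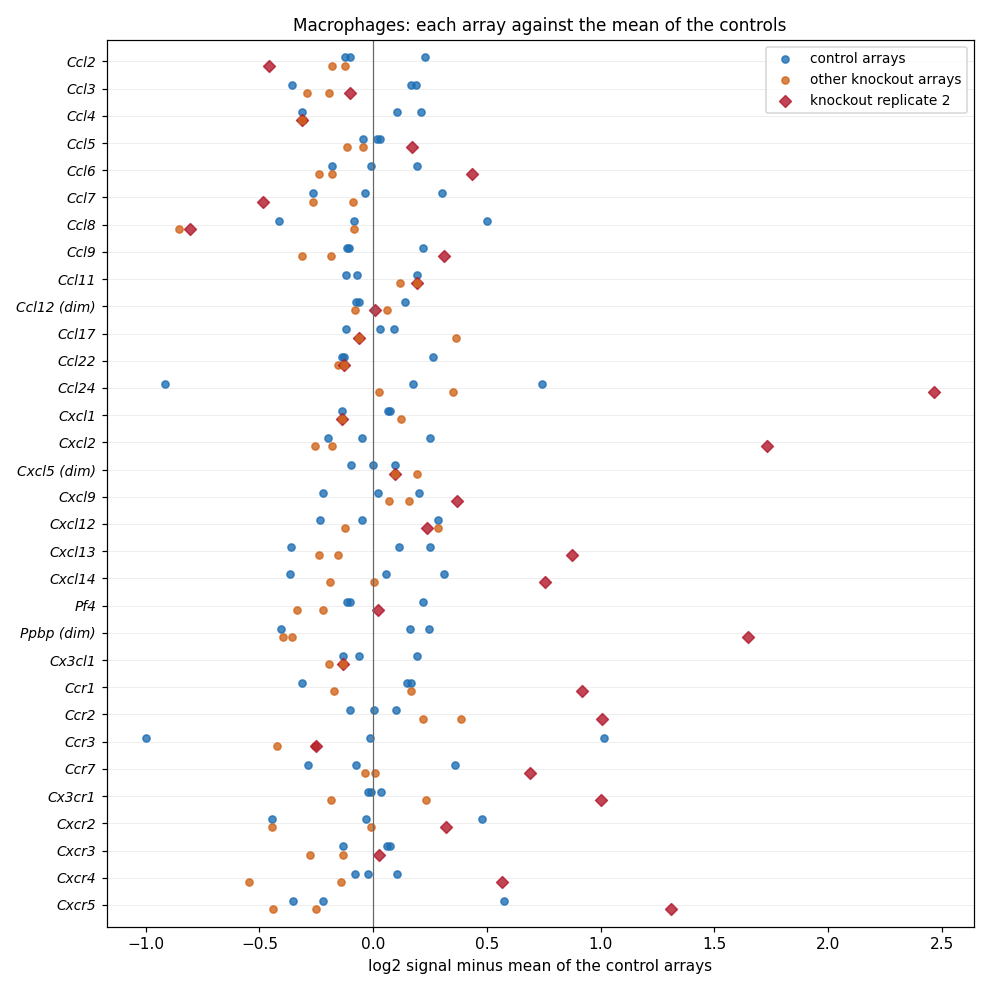
Each macrophage array's log2 signal minus the mean of the 3 controls, for the 32 genes, with knockout replicate 2 as diamonds and genes below the brightness filter marked dim. Knockout replicate 2 lies far to the right for Ccl24, Cxcl2, Ppbp and Cxcr5, while the other knockout arrays lie among or below the controls for these genes.

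Knockout replicate 2 gave the highest value more often than any other macrophage array. It was the highest of the 6 arrays for 15 of the 32 members, or 46.9%, against 12.3% of all genes tested. A tied value counted for no array. In the array set of knockout replicate 2, 41.2% of all genes tested and 17.2% of the 29 members past the filter differed by exactly 0. Ties therefore lowered the share of all genes more, and the 2 shares are not matched. The 32 include 3 below the filter that the genes tested had passed. Control replicates 1 and 2 were the highest for 4 and 7, knockout replicate 1 for 3 and knockout replicate 3 for 0. Of all genes tested, these 4 arrays were the highest for 19.1%, 21.1%, 34.7% and 2.95%. Knockout replicate 1 was the lowest for 10 of the 32 members, against 11.6% of all genes tested. Ccl24, an eotaxin of alternatively activated macrophages, read 9.66 on knockout replicate 2 against 6.28 to 7.94 on the other 5. Cxcl2 read 10.35 against 8.36 to 8.86, and Ppbp 6.97 against 4.91 to 5.56. Among receptors, Ccr1 read 10.65 against 9.42 to 9.90, Cx3cr1 8.93 against 7.74 to 8.16, Cxcr4 13.05 against 11.94 to 12.59, and the B cell follicle receptor Cxcr5 7.16 against 5.41 to 6.42. The ligand of Cxcr5, Cxcl13, read 9.10 against 7.86 to 8.47. For each of these 8 genes the other knockout arrays lay within or below the range of the controls, except Cx3cr1 on knockout replicate 3, at 8.16. Without knockout replicate 2, 7 of 27 members were positive and 20 negative, with a median of -0.15, against 46.8% of all genes positive. Within the array set without it, 23 of 29 members were negative and 6 positive, against 42.6% of all genes negative. Within the set that held it, 20 members were positive, 4 negative and 5 at exactly 0, against 26.9% of all genes positive and 41.2% at exactly 0.

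Markers of macrophages and of other cells moved with the same array. The summed signal of 8 B cell markers was 4585 on knockout replicate 2 and 863 to 1876 on the others, with Ms4a1, which encodes CD20, at 10.13 against 6.46 to 8.26 in log2. The 6 inflammatory monocyte markers, which include Plac8 and Hp, summed to 9838 against 3513 to 5041, and the 6 fibroblast markers to 750 against 1328 to 3160. The 8 mast cell markers summed to 2011 against 768 to 1247. Their median log2 signal was 7.26 on knockout replicate 2 and 6.68 to 7.25 on the others, so the higher sum did not extend to the middle of this list. Of these lists 2, 0, 1 and 1 genes were below the brightness filter. The 11 macrophage markers were also highest on knockout replicate 2, with a sum of 76279 against 58568 to 69569. Lowest on it were the 8 mesothelial markers, at 740 against 794 to 1171, and the 6 endothelial markers, at 717 against 993 to 1229. The part of any of these lists in the values of knockout replicate 2 was not tested.

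By role, 5 of 12 CC ligands, 5 of 7 CXC ligands and 5 of 9 receptors tested in macrophages had positive differences. Several members had almost no difference in their means. Ccl5 was at 0.00, with 8.09, 8.10 and 8.03 in controls and 7.96, 8.25 and 8.03 in knockouts, and Ccl6 was at 0.00 with knockout replicate 2 alone above the controls, at 13.56. Cxcr4 was at -0.04 and Cxcr2, the neutrophil receptor of Cxcl1 and Cxcl2, also at -0.04, each with overlap. Ccl3 was at -0.20 and Pf4 at -0.18. Ccl17 and Ccl22, ligands of Ccr4 made by alternatively activated macrophages and dendritic cells, were at 0.08 and -0.14, and 3 of the 6 Ccl22 arrays, both genotypes included, read 6.37. The 23 members past the filter in macrophages and not described by array had differences from -0.31 to 0.95, with the highest for Ccl24 and the lowest for Ccr3, and their smallest unadjusted limma p was 0.19. Ccl12, Cxcl5 and Ppbp were below the filter. Of the other genes of the pathway, 0 of 40 tested in macrophages were called in limma, and 0 had an unadjusted p under 0.05. The smallest unadjusted p were those of Ccrl2, a receptor that binds chemerin, at -0.19, and Dock2, an activator of Rac downstream of chemokine receptors, at 0.21. Rgs1, a regulator of G protein signalling, was at -0.16 with all knockouts below all controls. The 22 receptor signalling genes were split 12 to 10 with a median of 0.03.

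In re-fed liver no chemokine or receptor transcript was called between genotypes. The members at an unadjusted limma p under 0.05 were Ccl6, Cxcl5, Cxcl9, Ccl2 and Ccr2, with knockout means of 56.0% to 64.6% of the control level, and Ccl9, with a higher knockout mean. Of 15942 genes tested in limma with Benjamini-Hochberg adjustment, 1 was called, or 0.00627%, and 0 of 26 members. At an unadjusted limma p under 0.05 there were 684 genes, or 4.29%, and 6 members. All knockout arrays lay below all control arrays for 9 members and above for 1, where 18% and 11.8% of all genes did so. Differences were negative for 17 members and positive for 9, with a median of -0.10, where 42.8% of all genes were positive and the median was -0.02.

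Ccl6, a macrophage-attracting CC ligand found in rodents, read 9.44 and 9.60 in control liver and 8.72 and 8.65 in knockout liver. The genotypes were separated by more than the gap within either, and the difference was -0.84 ± 0.13 (SE, n = 2 per genotype; limma adjusted p = 0.38). Ccl9, its close neighbour on chromosome 11, went the other way, at 9.30 and 9.68 against 9.88 and 9.95, a difference of 0.43 ± 0.16 (limma adjusted p = 1.00). Without control replicate 1 the Ccl9 difference was 0.24. Ccl2 read 5.87 and 6.20 against 5.18 and 5.61, a difference of -0.64 ± 0.18 (limma adjusted p = 0.989). Its genotypes did not overlap.

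Both CXC ligands of the group were lower on each knockout array. Cxcl5 read 5.34 and 5.62 against 4.83 and 4.87, a difference of -0.63 ± 0.14 (limma adjusted p = 0.754). Cxcl9 read 7.04 and 7.38 against 6.54 and 6.62, a difference of -0.63 ± 0.15 (limma adjusted p = 0.828). Cxcl1 and Cxcl2, the NF-kB consensus pair, were at -0.25 with overlapping genotypes and at -0.22 with none. Ccr2 was the receptor with the widest difference, at 5.58 and 6.02 against 4.68 and 5.50. The lower control and the higher knockout were close, and the difference was -0.71 ± 0.26 (limma adjusted p = 1.00). It was -0.30 without knockout replicate 1 and -1.12 without knockout replicate 2.

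The 20 other members past the filter in liver ranged from -0.65 for Ccl3 to 0.29 for Cxcl14, with overlap in both of those. Ccl4, Cxcl2, Cxcr4 and Cx3cr1 also had both knockouts below both controls, at -0.18, -0.22, -0.23 and -0.20. Ccl5, a T cell attractant, was at -0.57 with controls of 7.48 and 8.56 that lay on either side of the higher knockout, 7.64. By role, 7 of 11 CC ligands, 6 of 9 CXC ligands and 4 of 5 receptors tested in liver had negative differences. Cxcl12 was at 0.10 and Pf4 at -0.01, each with overlap. Ppbp was at 0.16, with knockouts as far apart as 6.75 and 5.15. Cxcl14, an epithelial and stromal ligand, also had its highest and lowest values in the knockouts, 7.50 and 6.19, as did Cxcl13 with 5.86 and 5.05. Ccr7, which guides dendritic and T cells to lymph nodes, was at -0.08 and Cxcr3 at 0.02. Ccl8, Ccl12, Ccr1, Ccr3, Cxcr2 and Cxcr5 were below the filter. The signs depended on single arrays. Without control replicate 2 they were 13 to 13 with a median of 0.00, where 42.8% of all genes were positive. Without knockout replicate 1 they were 5 positive to 21 negative with a median of -0.22, where 46.7% of all genes were positive.

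**Figure D3:**
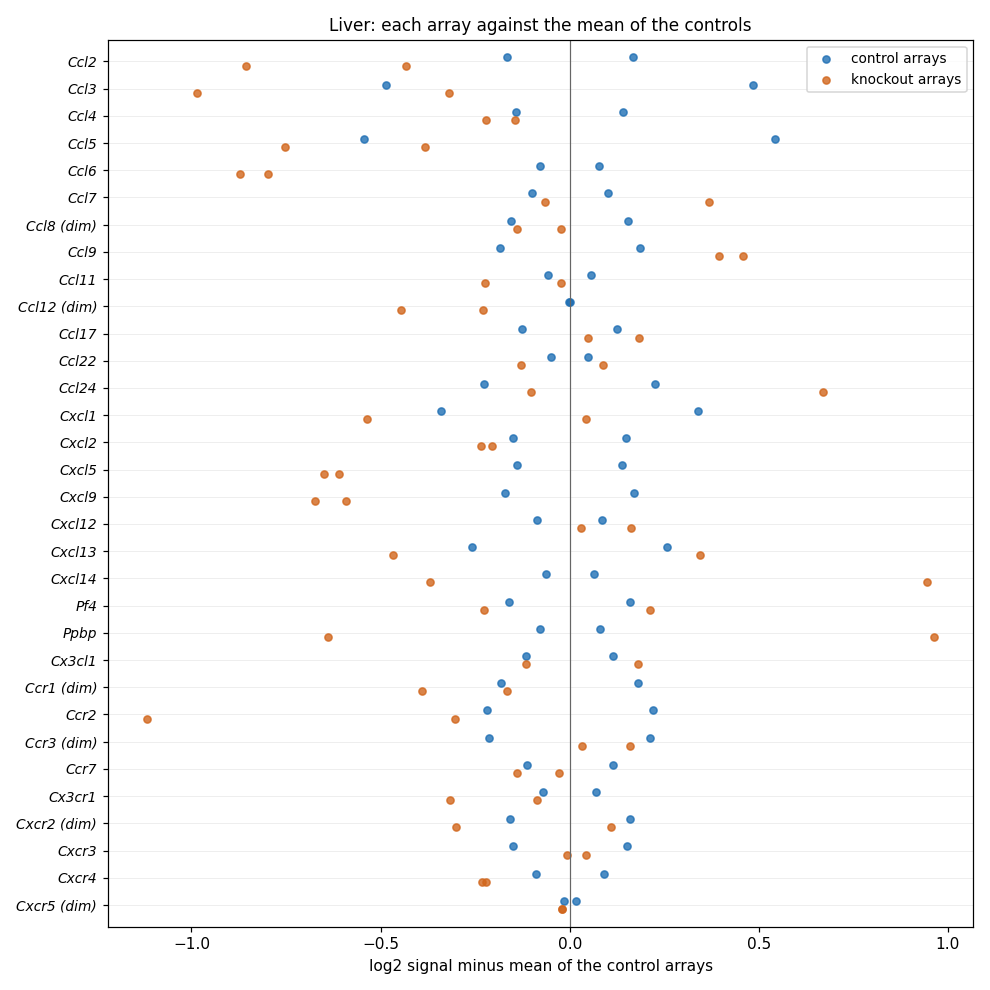
Each liver array's log2 signal minus the mean of the 2 controls, for the 32 genes, with genes below the brightness filter marked dim. Both knockouts lie left of both controls for Ccl6, Cxcl5, Cxcl9, Ccl2 and Ccr2, and right of them for Ccl9.

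Markers of macrophages and of several other cell types also had mostly negative differences in these livers. Of 11 macrophage markers 10 had negative differences, with a median of -0.32, and their summed signal was 7616 and 10274 in controls and 6004 and 6899 in knockouts. Cd68, a lysosomal protein of macrophages, was at -0.84 and Lyz2, lysozyme, at -0.65. All 7 Kupffer cell markers had negative differences, with a median of -0.41 and sums of 5471 to 6970 against 3659 to 5228. Cdh5 was on this list and on the endothelial list, and so was counted in both. The same list summed to 4993 to 8382 on the macrophage arrays, so it does not mark Kupffer cells alone. Of 6 T and NK cell markers tested 5 were negative, with a median of -0.25, and of 5 inflammatory monocyte markers 3 were negative. Outside the leukocytes, 5 of 6 fibroblast markers were negative with a median of -0.27, 2 of them at an unadjusted limma p under 0.05, and all 6 endothelial markers with a median of -0.15. B cell markers were positive in 3 of 5, with a median of 0.14, and mast cell markers in 2 of 3. None of the 11 and 7 markers was below the filter, and the part of any of these lists in the ligand and receptor values was not tested. Of the other genes of the pathway, 0 of 41 tested were called in limma and 2 had an unadjusted p under 0.05, both lower. These were Dock2, at 6.74 and 6.88 against 6.33 and 6.41, and Cxcl16, the transmembrane ligand of Cxcr6, at 7.58 and 7.64 against 7.02 and 7.32. The receptor signalling genes were negative in 16 of 21, with a median of -0.17, and the chemokine receptors outside the 32 in 3 of 5.

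Whether the genotype difference itself differed between macrophages and liver was tested by the interaction in limma over 10 arrays. It was called for 0 of 16363 genes, or 0%, and 0 of 31 members, with 435 genes and 4 members at an unadjusted p under 0.05. The 4 members were Ccr2, Ccl6, Cxcl9 and Cxcl5. Ccr2 had the widest difference, 1.28 ± 0.40 (limma adjusted p = 1.00), being higher on all macrophage knockouts and lower on all liver knockouts. Ccl6 was at 0.87 ± 0.28 and Cxcl9 at 0.86 ± 0.26. Cxcl5 was below the filter in macrophages and entered this fit through liver alone, so no size is given for it. In Ccl6, Cxcl9 and Cxcl5 the liver difference was negative. Their macrophage differences were 0.00, 0.20 and 0.13, the last below the filter.

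**Figure D4:**
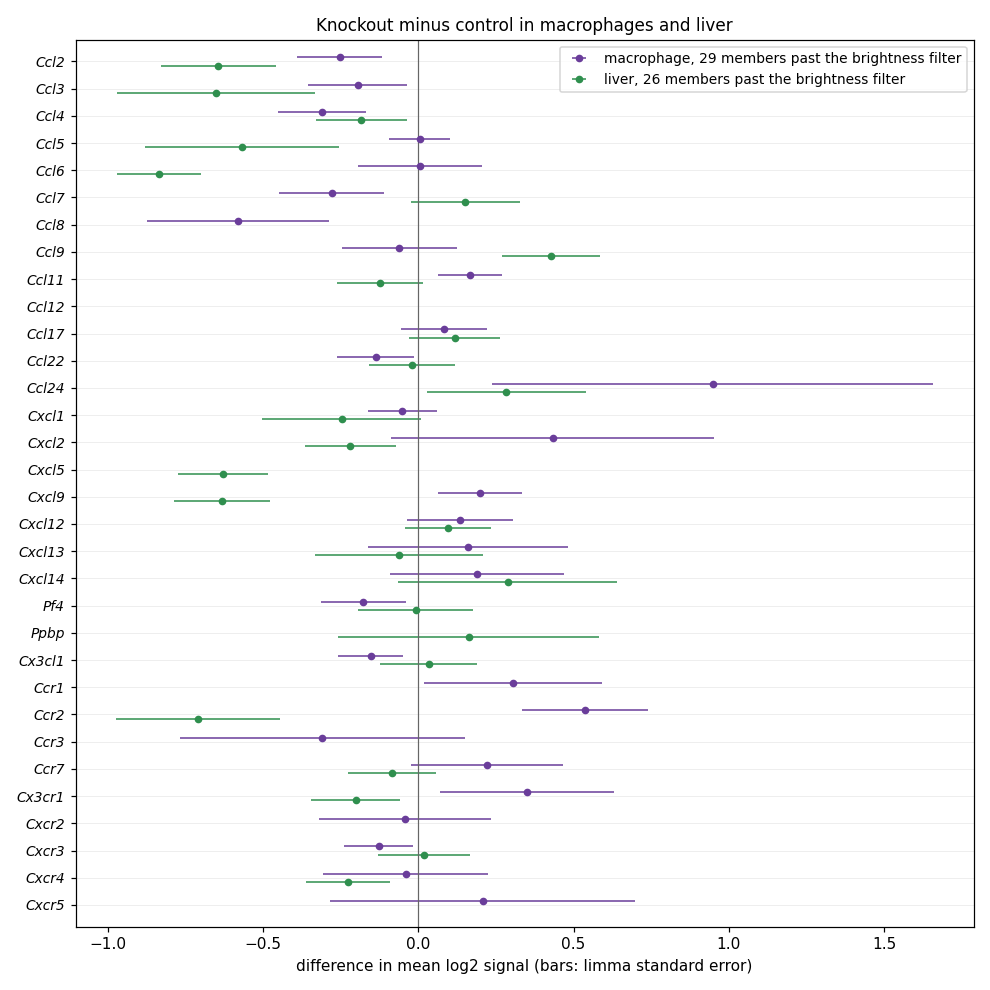
Knockout minus control in mean log2 signal for members past the brightness filter, 29 in macrophages and 26 in liver, with bars of 1 limma standard error. Ccr2 lies on opposite sides of 0 in the 2 tissues, Ccl6 lies at 0.00 in macrophages and -0.84 in liver, and Ccl24 in macrophages has the widest error bar.

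In the aorta the comparison was of 1 pool per genotype, with no replicate check and no test. Cxcl13, Ppbp, Cxcr4, Ccl8 and Cxcl12 were at least 1.5-fold higher in the knockout pool, and no member was as much lower. Of 7098 genes past the filter, 3.1% were at least 1.5-fold higher on the log2(signal + 16) scale and 2.35% lower, against 5 and 0 of the 17 members past it. Of the 5, Ppbp passed the filter through the knockout pool alone, so the filter itself favoured a higher knockout value in it. Cxcl12 went the other way at its other probe set. The fold on this scale understates the change of dim genes. Of the 17, 14 were higher and 3 lower, with a median of 0.18, where 48.5% of all genes were higher. When both arrays were scaled to the same median, 10 members were higher and 8 lower, where 32.5% of all genes were higher. On that scale 4 members were at least 1.5-fold higher and 0 as much lower, against 149 and 291 of 7089 genes.

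Cxcl13, the B cell follicle chemokine, gave a signal of 77.5 for control and 287 for knockout, 3.23-fold on the scale used. Its other probe set read 59.5 and 141, in the same direction. Its receptor Cxcr5 was below the filter, at 6.76 and 19.3. Ppbp, the platelet basic protein, read 13.4 and 69.4, passing the filter through the knockout pool alone, as Ccl4 and Ccr2 did. No fold is given for Ppbp for that reason. Pf4, also of platelets, read 165 and 211. Ccl8, a monocyte attractant, read 161 and 294, or 1.75-fold, and had a single probe set.

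Cxcr4 and its ligand Cxcl12 were both among the 5. Cxcr4 read 33.4 and 75.6, or 1.85-fold. Cxcl12 read 245 and 392 at the probe set with the higher mean, or 1.56-fold, and 303 and 224 at the other, in the opposite direction. By the mean of its probe sets the Cxcl12 difference was 0.16 on the log2 scale, in place of 0.64, so its direction rests on the choice of probe set. Cxcr3 and Ccr7, receptors of T cells, were below the filter at 15.6 and 30.4 and at 7.01 and 17.5.

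The 12 other members past the filter ranged from -0.28 to 0.41 on the log2(signal + 16) scale. Ccl5 was the highest, at 63.2 and 89.0, and Ccl3 the lowest, at 40.2 and 30.3. Ccl4, encoded next to Ccl3, read 27.4 and 37.1, and Ccl11 read 68.4 and 76.5. Cxcl1 read 50.6 and 59.4, and Cx3cl1, fractalkine, 33.2 and 35.7. Cxcl14 read 34.5 and 28.1 at its brighter probe set and 22.2 and 24.8 at the other, in opposite directions. Ccl6, the ligand with the smallest p in liver, read 524 and 479, and Ccl9 262 and 266. Ccr2 read 32.0 and 33.7 at its brightest probe set, and Cxcl9 54.6 and 55.5. On the scale used, Ccl6, Ccr2 and Cxcl9 thus differed 1.09-fold, 1.04-fold and 1.01-fold between the aorta pools. The other 15 members were below the filter, among them Ccl2 at 31.6 and 29.0.

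**Figure D5:**
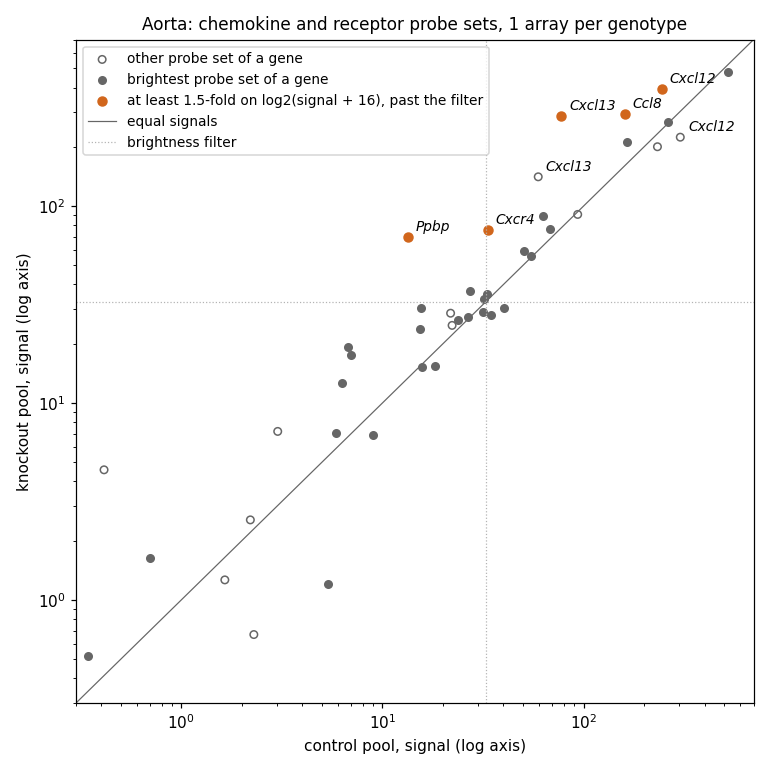
Signal of the 43 probe sets in the control pool and the knockout pool of aorta, 1 array each, on log axes, with the line of equal signals and the brightness filter. Among probe sets past the filter, those of Ppbp, Cxcl13, Cxcr4 and Ccl8 and 1 of Cxcl12 lie above the line by at least 1.5-fold, and the other Cxcl12 probe set lies below it. Dim probe sets, such as those of Ccr7 and Cxcr5, scatter as widely around the line.

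Lymphocyte transcripts were higher in the same knockout pool. The summed signal of 8 B cell markers went from 126 to 771 between control and knockout pools, with Ms4a1 at 49.9 and 453 and Cd79b, a B cell receptor subunit, at 29.8 and 162. The 7 T and NK cell markers summed to 45.6 and 182, with Cd3d at 6.08 and 87.5. Of these lists 4 and 5 genes were below the filter. The 6 platelet markers summed to 122 and 179, and the 11 macrophage markers to 5699 and 5996. The 6 skeletal muscle markers went down from 8712 to 5712, with 4 past 1.5-fold lower, and the 6 endothelial markers from 1413 to 1132, each of them lower. Among other pathway genes Rgs18, a regulator of G protein signalling in blood cells, read 12.0 and 39.7, Ccr6, a receptor of B and T cells, 18.6 and 41.7, and Elmo1, the partner of Dock2, 21.7 and 40.8. These 3 were the only ones of 20 tested past 1.5-fold. Each passed the filter through the knockout pool alone, so the filter itself favoured a higher knockout value in them. Of all genes past the filter, 3.1% were at least 1.5-fold higher and 2.35% lower. The part of lymphocyte, muscle or endothelial RNA in the Cxcl13, Cxcr4 and other values was not tested.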

How the data were processed

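Macrophage and liver RNA was hybridised to Affymetrix Mouse Gene 1.0 ST arrays and aortic RNA to Mouse Genome 430A 2.0 arrays, per the labels. The deposited macrophage and liver values are log2 signals, and the deposited aorta values are signal intensities on a linear scale, with a 2% trimmed mean near 100 on both arrays. The submitters' processing notes name Affymetrix Expression Console, and the summarising method and version were not given in the sources used here. A gene was its brightest probe set annotated to that symbol alone. Genes below the 30th percentile of probe set means were left out of each tissue's fit. Genotypes were compared within macrophages and within liver in limma 3.58.1 (lmFit and eBayes, R 4.3.3) with Benjamini-Hochberg adjustment over all genes tested and a threshold of 0.05. The tissue level and the interaction were fitted over 10 arrays, each centred on its median, keeping genes past the filter in either tissue. The aorta was described by differences of log2(signal + 16), for genes whose brighter array reached a signal of 32.6, the median over probe sets. No depth applies to arrays, whose number limits the precision.

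Members described with every array's value were those past the filter with an unadjusted p under 0.05, or with no overlap and a difference of at least 0.5, filled to the 6 with the smallest p. Members past 1.5-fold in aorta and the 5 widest differences in each direction between control tissues were added. Up to 6 other pathway genes per tissue could be named, and the members shown for knockout replicate 2 or below the filter were picked with their values in view. The members, the 5 pathway lists and the 17 marker lists were chosen with earlier results of these data known. The fit was tested on simulated data. Alternatives covered normalization, filters, probe set choice, prior, replicate and array set blocks, pseudocounts and leaving out each array.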

Additional observations from a re-analysis of the deposited data

Results flagged for a closer look

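The transcript of Ccr2 stood out because its genotype difference pointed in opposite directions in the 2 tissues. Every macrophage knockout array was above every macrophage control, as for 0.652% of all genes tested there. Every liver knockout array was below every liver control, as for 18% of all genes tested there. The liver signal was low, with means of 5.80 in controls and 5.09 in knockouts, where the medians of the liver arrays were 5.88 to 5.93. The macrophage difference minus the liver difference was 1.28 on the log2 scale, and its limma adjusted p was 1.00. It ranged from 0.84 without liver knockout replicate 1 to 1.71 without liver knockout replicate 2. Its sign was the same in all 14 alternatives run. Because the gene was flagged for having no overlap in either tissue, leaving out an array could hardly turn that sign, so its constancy says little.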

How the results depend on the processing

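No member was called between genotypes in macrophages or liver, or for the interaction, under any alternative run. Of 334 alternative values for 28 described results, 328 counted as the same and 0 as reversed. For limma fits the same meant an equal direction and side of the threshold, whatever the size. For aorta it meant within 1.5 times the main difference, and for values within an array set, within the pooled SD of it. The genotype differences had adjusted p far above the threshold, so keeping its side says little. The limma adjusted p of Ccl6 in liver ranged from 0.0501 to 0.859 over its alternatives. In liver 1 gene was called, against 0 with quantile normalization, no filter, a trended prior or all 10 arrays in 1 fit, and 0 to 39 when leaving out an array; 39 was without knockout replicate 2. With the replicate number as a block 23 genes were called in liver, no member among them. In the tissue comparison the block called 22 members in place of 25, and leaving out an array 21 to 26; it changed no call between genotypes in macrophages. Same-numbered arrays correlated at 0.40, 0.03 and 0.50 in macrophages and 0.11 in liver, so the numbers were not taken to pair the samples, although macrophage numbers share an age. Members at an unadjusted p under 0.05 in macrophages went from 1, Ccr2, to Ccr2 and Ccl4 with quantile normalization, Ccr2 and Ccl24 with the replicate block, Ccl4 and Ccl8 without Ccr2 with all 10 arrays in 1 fit, to 0 with a block for array set, and to 0 to 4 when leaving out an array: 0 without control replicate 2, Ccl8 in place of Ccr2 without control replicate 1, and 4 others without control replicate 3. In the aorta 5 members were past 1.5-fold, 3 with a pseudocount of 64 and 2 at 2-fold. With 1 aorta array and 2 liver arrays per genotype, the number of arrays limits the precision.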
